A study of Drosophila melanogaster with 16 samples.

Results

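The proteasome subunit genes of Drosophila were taken from the deposited table by symbol, as all rows that begin with Rpn, Rpt, Prosalpha or Prosbeta and a number. This gave 33 genes among 9863, and all 33 reached 1 CPM in at least 4 of the 16 libraries, which left them among the 9837 genes tested. They comprise 8 subunits of the lid, 12 genes of the base, 6 outer-ring subunits of the core (core alpha) and 7 inner-ring subunits (core beta). In the base, Rpt3R and Rpt4R are further copies of the ATPase genes Rpt3 and Rpt4. Prosalpha1 is not analysed here.

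The proteasome is the large protease that breaks down proteins marked with ubiquitin. Proteins enter a barrel in which outer alpha rings form the gate and inner beta rings hold the protease sites. On each end sits a regulatory particle, whose base unfolds the substrate with a ring of ATPases and whose lid removes the ubiquitin chain. The subunits are needed in fixed proportion, and in animals their genes are known to be raised together by transcription factors of the Nrf family, of which the fly member is cnc.

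RNA was measured in whole larvae with 4 libraries in each of 4 groups: cwo B9 on high sugar, cwo B9 on low sugar, control on high sugar and control on low sugar. All larvae first fed as first instars on the low-sugar diet (10% yeast) for 24 h at 25 °C, and then, as early second instars, spent 8 h either on that diet or on one with 15% sucrose added. The series' title names the question, the part of Clockwork orange, a transcriptional repressor and product of cwo, in how larvae respond to sugar. The labels call the B9 libraries mutant and give neither the lesion nor the strain background of either genotype, so the allele and its background cannot be told apart. They do not say how many larvae or which separate cultures stand behind a library either, and the p-values therefore speak of the scatter among these 16 libraries, some of which may be technical.

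The depth behind the values was 44.9 to 54.2 M reads per library. The targeted gene cwo averaged 279 ± 11.4 CPM labelled cwo B9 on high sugar, 181 ± 28.2 labelled cwo B9 on low sugar, 68.9 ± 3.93 in control on high sugar and 57.0 ± 1.53 in control on low sugar (SD, n = 4), so its RNA was higher under the mutant label. The gene total does not check what the allele changes, and every genotype direction below rests on the label. Markers of muscle, neurons, gut and haemocytes (4 genes each), of the germ line (6 genes) and of fat body (1 of the 4 genes listed) were all above 0. The summed gut markers were 2211 to 2805 CPM labelled cwo B9 on high sugar, 1503 to 1739 labelled cwo B9 on low sugar, 1154 to 1686 in control on high sugar and 488 to 576 in control on low sugar. The summed muscle markers were 29978 to 33696, 27522 to 33587, 36523 to 39299.9 and 32480.3 to 34544 CPM in the same order of groups. The neuron markers summed to 203 to 236, 171 to 218, 212 to 240.2 and 156 to 183 CPM. The haemocyte markers summed to 164 to 229, 135 to 166, 166 to 215 and 164 to 191 CPM. The germ-line markers lay between 9.55 and 26.0 CPM in all libraries. The male markers roX1 and roX2 summed to 138 to 252, 115 to 282, 63.1 to 194 and 144 to 197 CPM in the same order of groups. The part of the sex of the larvae in the levels below was not tested. The Tweedle cuticle genes varied within groups. Their mean log2 level was 6.10 in replicate 3 labelled cwo B9 on high sugar, against 4.25 to 5.29 in the other libraries of that group. It was 6.81 in replicate 4 labelled cwo B9 on low sugar, against 3.83 to 5.37. It was 6.18 in replicate 4 of control on high sugar, against 3.84 to 4.33. It was 5.80 in replicate 1 of control on low sugar, against 3.92 to 4.04.

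Levels below are in CPM, as the authors named the deposited values, and differences are log2 differences ± SE from limma on log2(CPM + 0.5), two-sided, with p-values adjusted by Benjamini-Hochberg over the 9837 genes. A gene is said to have fallen or risen where the adjusted p was under 0.05. Rpt3R and Rpt4R stood at the edge of detection, at 0.412 to 1.41 CPM (19 to 74 reads) and at 0.397 to 1.86 CPM (20 to 92 reads). They reached 1 CPM in only 6 and 8 libraries and passed no test. The other 31 members had between 2675 and 11851 reads in every library.

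The subunit RNAs were lowest in libraries labelled cwo B9 on high sugar and highest in control libraries on low sugar. The 31 members other than Rpt3R and Rpt4R summed to 2908 ± 82.2 CPM labelled cwo B9 on high sugar, 3447 ± 178 labelled cwo B9 on low sugar, 3295 ± 134 in control on high sugar and 4126 ± 93.7 in control on low sugar (SD, n = 4 each). As a share of the control low-sugar sum these were 70.5%, 83.6% and 79.9% for the other 3 groups. By single library, the sum was 2794 to 2971 CPM labelled cwo B9 on high sugar and 4036 to 4247 CPM in control on low sugar, with a gap to both middle groups. The middle groups overlapped, at 3287 to 3699 CPM labelled cwo B9 on low sugar and 3163 to 3482 CPM in control on high sugar, and were not tested against each other. By means, 24 of the 31 members kept the order of these sums, in 6 the level labelled cwo B9 on low sugar was under that of control on high sugar, and Prosbeta3 had an order of its own. In whole-larva RNA, fewer cells of a type and less RNA per cell cannot be told apart. The gut marker sum was highest labelled cwo B9 on high sugar and lowest in control on low sugar, though its gene Amy-p fell with high sugar, and the part of gut RNA in these levels was not tested.

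**Figure D1:**
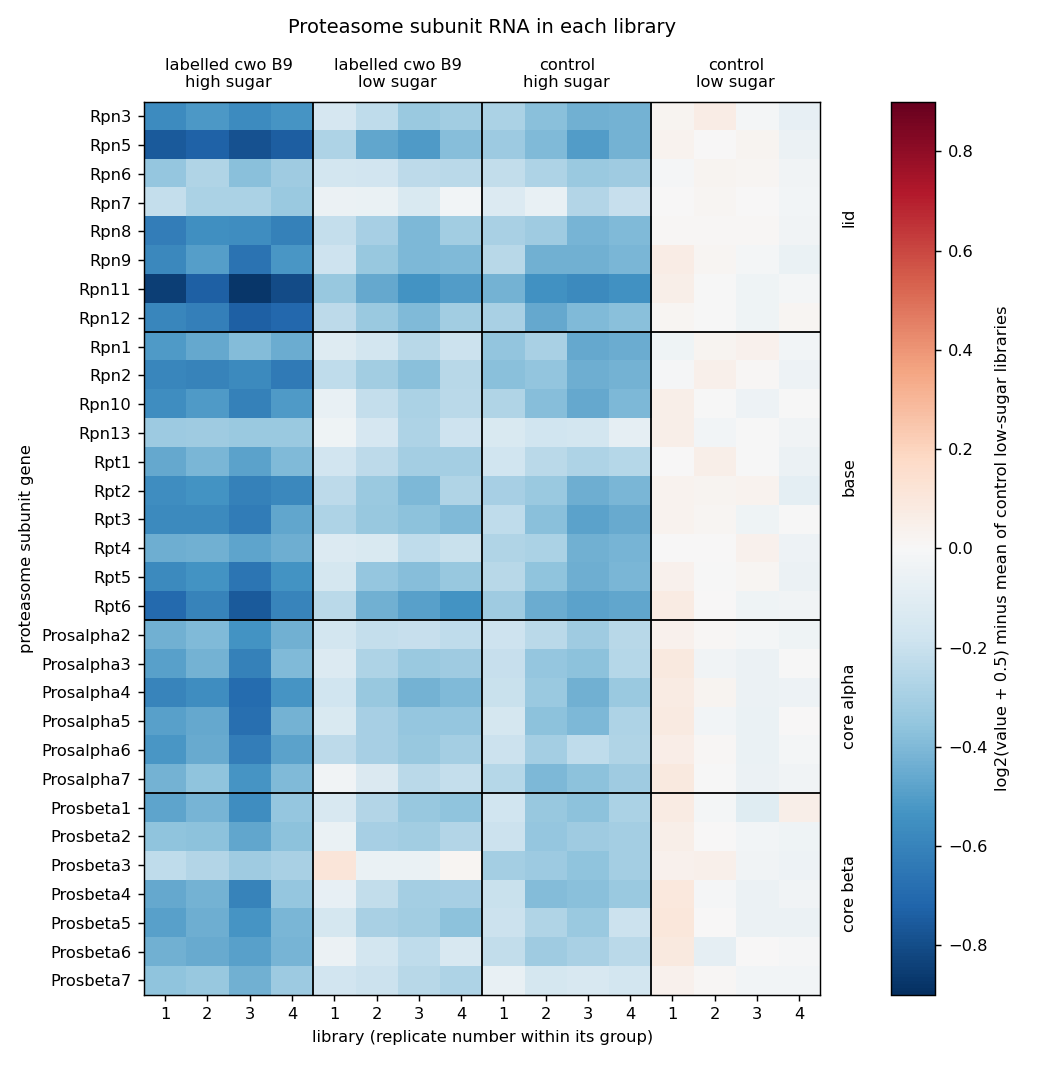
Each row is a proteasome subunit gene and each column a library; the colour is log2(CPM + 0.5) minus the mean of the 4 control low-sugar libraries. In 30 rows the libraries labelled cwo B9 on high sugar have the lowest mean. All 4 of them lie below all 4 high-sugar control libraries in 22 rows. Rpn11 reaches the deepest colour, and Prosbeta3 and Rpn7 are pale in the libraries labelled cwo B9 on low sugar.

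On high sugar nearly every subunit RNA fell, in both genotypes. In larvae labelled cwo B9, 31 of 33 members were lower on high than on low sugar and none higher, where 29.5% of all genes tested were called lower; their median difference was -0.24, against -0.01 over all genes. In control larvae 31 of 33 were lower and none higher, against 34.8% of all genes, with a median of -0.32 against 0.00. The 2 members not called were Rpt3R and Rpt4R in both genotypes. All 4 high-sugar libraries lay below all 4 low-sugar libraries for 30 members labelled cwo B9 (26.3% of all genes) and for 31 members in control (32.9%). The falls were small, leaving 78.2% to 91.6% of the low-sugar level labelled cwo B9 and 69.6% to 91.1% in control, and the SE of each was between 0.04 and 0.07. Markers of other tissues moved with diet too. Of 4 gut markers 3 rose in each genotype. The other, Amy-p, a digestive amylase, fell by 3.40 labelled cwo B9 and fell by 3.77 in control. Of 4 neuron markers 2 rose labelled cwo B9 and 3 in control, and of 4 muscle markers none and 3. Of 4 haemocyte markers 3 and 2 rose in the same order. The fat body gene fell by 0.23 in control. Of the 2 male markers 1 fell in control and none passed labelled cwo B9. Among all genes 22.5% rose with diet labelled cwo B9 and 33.1% in control. The part of the markers' tissues in the diet differences was not tested.

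**Figure D2:**
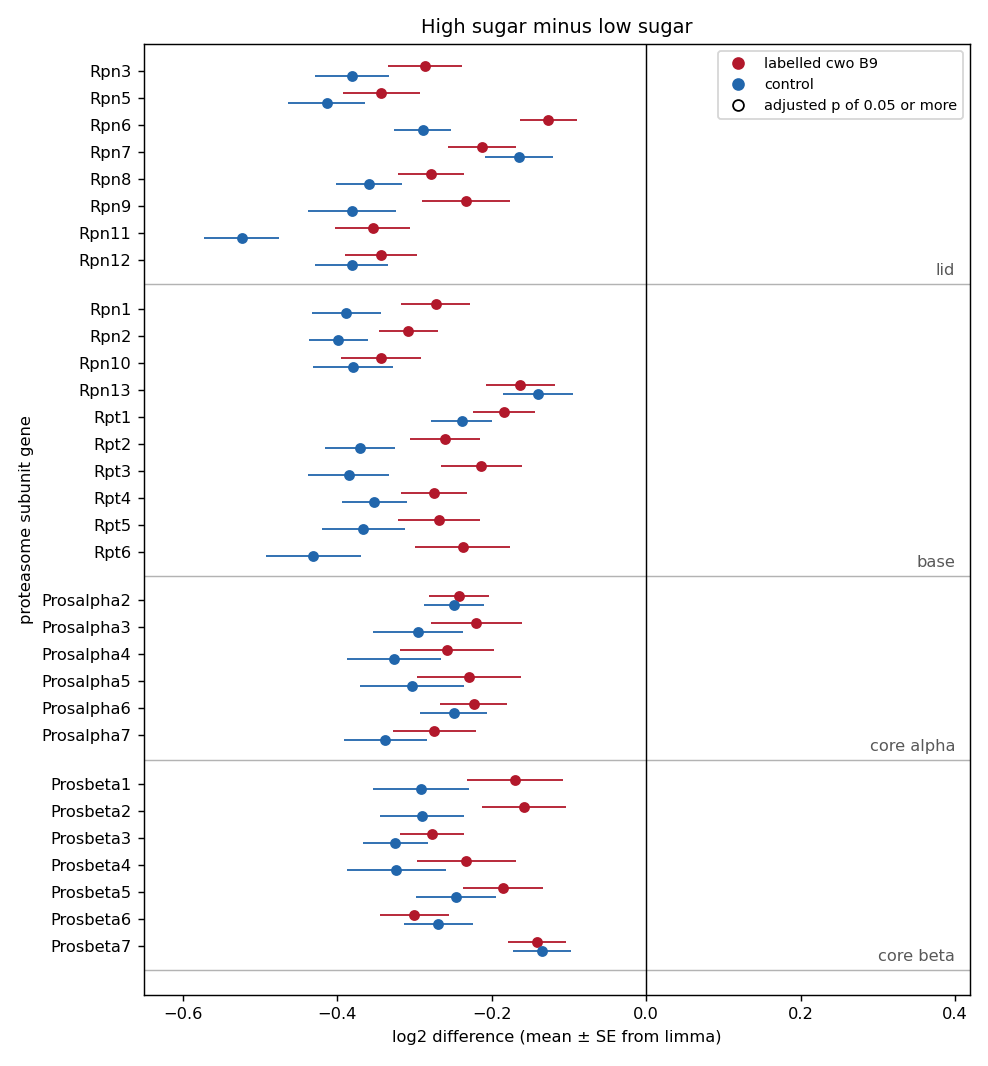
Points are the log2 difference of high minus low sugar for each of 31 subunit genes, with SE bars, in larvae labelled cwo B9 (red) and in control (blue). All points lie left of 0; Rpn11 in control is the lowest at -0.52 and Rpn6 labelled cwo B9 the nearest to 0 at -0.13.

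The libraries labelled cwo B9 also held less subunit RNA than control libraries on the same diet. On high sugar 23 of 33 members were lower and none higher, where 18.9% of all genes were called lower; the median was -0.19, against 0.00 over all genes. On low sugar 29 of 33 were lower and none higher, against 20.8% of all genes, with a median of -0.26 against 0.00. All 4 libraries labelled cwo B9 lay below all 4 control libraries for 22 members on high sugar (19.5% of all genes) and 28 on low sugar (18.1%). Besides Rpt3R and Rpt4R, the members that were not called on high sugar were Rpn6, Rpn1, Rpt4, Prosalpha7, Prosbeta1, Prosbeta2, Prosbeta3 and Prosbeta4, and on low sugar Rpn7 and Prosbeta3. Without replicate 1 of control on high sugar the call on high sugar was lost for Rpn7, Rpn9, Rpt3, Rpn10, Prosalpha3 and Prosalpha5, leaving 17. Without replicate 3 labelled cwo B9 on high sugar it was lost for the same genes except Rpt3, leaving 18. Of the 9837 genes, 1641 and 1693 were called lower in these fits, against 1861 in the fit reported. Without the library of highest Tweedle level in each group, the members called lower numbered 29 and 31 for diet, labelled cwo B9 and in control, and 18 and 24 for genotype, on high and on low sugar. Of the 9837 genes, 2706, 3219, 1649 and 1748 were then called lower, against 2906, 3420, 1861 and 2045 with all libraries. Of 4 muscle markers 4 were also lower labelled cwo B9 on high and 2 on low sugar. Of 4 haemocyte markers 1 and 2 were lower. Of 4 gut markers 3 were higher on either diet. Of 4 neuron markers none passed on high sugar and 2 were higher on low sugar. Of the 2 male markers 1 was higher on high sugar and none passed on low sugar. Among all genes 21.1% were higher labelled cwo B9 on high and 23.1% on low sugar. The part of the markers' tissues in the genotype differences was not tested.

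**Figure D3:**
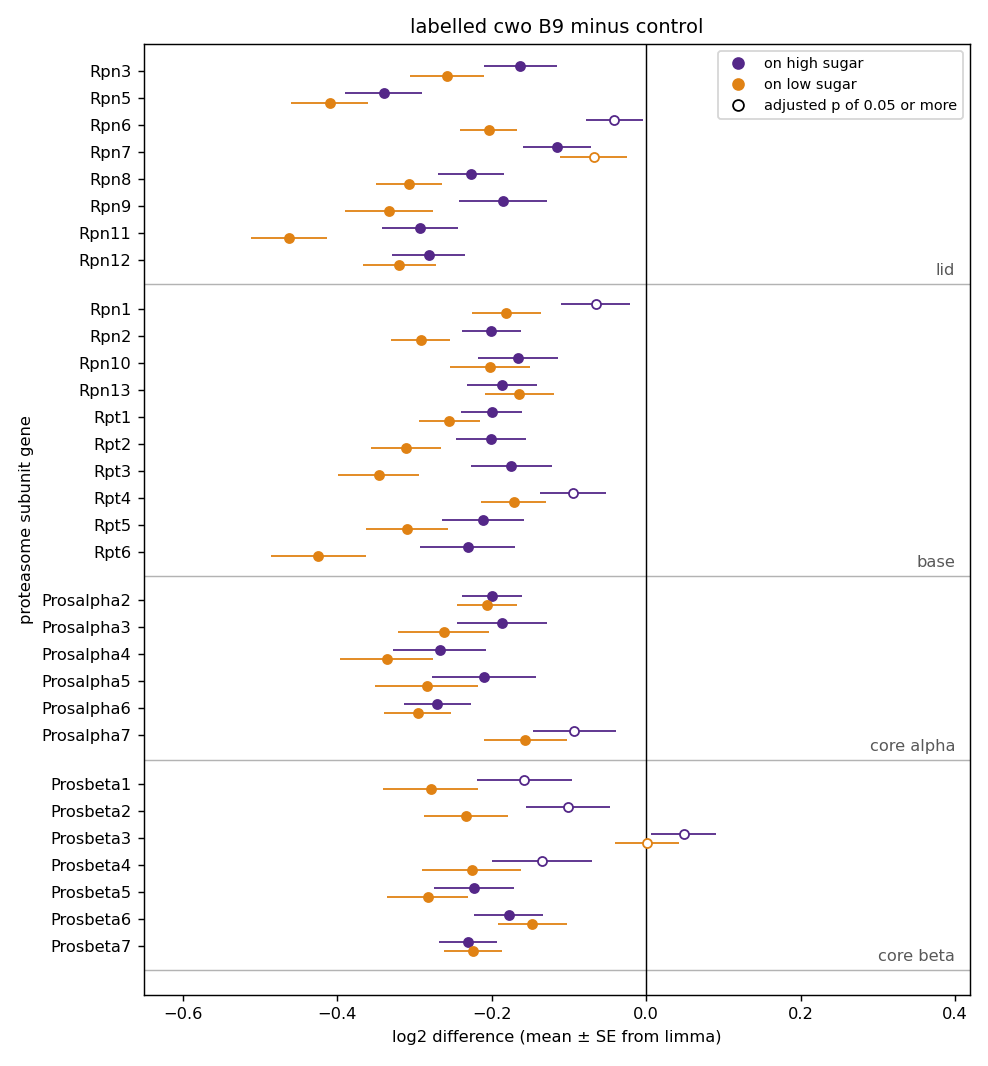
Points are the log2 difference of larvae labelled cwo B9 minus control for each of 31 subunit genes, with SE bars, on high sugar (purple) and low sugar (orange); open points did not pass. Most points lie left of 0, Rpn11 on low sugar is the lowest at -0.46, and both points of Prosbeta3 lie at or just right of 0.

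Leaving out Rpt3R and Rpt4R, the lid had the widest range of differences in all 4 comparisons of groups. Rpn11 (FBgn0028694, 2L 5058404 to 5059790, minus strand, positions from an annotation of BDGP6, Ensembl release 115) is the metalloprotease that cuts the ubiquitin chain from the substrate. In single libraries Rpn11 stood at 69.9, 75.7, 68.5 and 72.0 CPM labelled cwo B9 on high sugar, 99.6, 91.4, 86.7 and 88.9 labelled cwo B9 on low sugar, 93.7, 86.5, 84.6 and 86.2 in control on high sugar and 131, 126, 123 and 125 in control on low sugar. No library labelled cwo B9 on high sugar reached any library of another group, and the control low-sugar libraries stood above all the rest. On high sugar Rpn11 fell by 0.35 ± 0.05 (adjusted p = 2.37e-05) labelled cwo B9 and by 0.52 ± 0.05 (adjusted p = 1.76e-07) in control. Against control it fell by 0.29 ± 0.05 (adjusted p = 0.000198) labelled cwo B9 on high sugar and by 0.46 ± 0.05 (adjusted p = 2.17e-06) on low sugar. Its mean labelled cwo B9 on high sugar was 56.6% of that in control on low sugar, the lowest such share among the 31 members, where the median was 71.6% and the highest, for Prosbeta3, 82.5%.

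Rpn7 (FBgn0028688, 3R 22460662 to 22462054, minus strand) is a scaffold subunit of the lid, with the smallest difference of the lid for diet in control and for genotype on low sugar. Rpn7 measured 78.4, 74.8, 74.7 and 72.1 CPM in the high-sugar and 88.0, 87.4, 83.0 and 89.5 in the low-sugar libraries labelled cwo B9, against 83.7, 87.0, 76.0 and 79.0 in the high-sugar and 91.3, 92.5, 91.2 and 89.7 in the low-sugar control libraries. The high-sugar libraries lay below the low-sugar ones within each genotype, while on high sugar the genotypes overlapped. Rpn7 fell by 0.21 ± 0.04 (adjusted p = 0.000826) labelled cwo B9 and by 0.16 ± 0.04 (adjusted p = 0.00372) in control on high sugar. The genotype difference was -0.12 ± 0.04 (adjusted p = 0.0469) on high sugar, which passed, and -0.07 ± 0.04 (adjusted p = 0.225) on low sugar, which did not, although the 4 libraries labelled cwo B9 lay below the 4 control libraries there. The call on high sugar was lost in 17 of 27 alternative settings, with an adjusted p of up to 0.152. Of these, 11 left out 1 library. They were any library of control on low sugar, replicate 1 or 2 of control on high sugar, replicate 2 or 4 labelled cwo B9 on low sugar, or replicate 2, 3 or 4 labelled cwo B9 on high sugar. Its exons overlap those of CG34376 on the other strand over 88 bases.

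Rpn6 (FBgn0028689, 2R 14750166 to 14752910, minus strand) clamps the lid to the core, and in the worm Caenorhabditis elegans more of it is known to raise proteasome activity. In single libraries Rpn6 measured 122, 129, 120.2 and 125 CPM labelled cwo B9 on high sugar, 139.5, 139, 133 and 132 labelled cwo B9 on low sugar, 134, 129, 124 and 125 in control on high sugar and 155, 159, 158 and 153 in control on low sugar. The high-sugar libraries of the genotypes overlapped, but on low sugar every library labelled cwo B9 was below every control library. On high sugar Rpn6 fell by 0.13 ± 0.04 (adjusted p = 0.00960) labelled cwo B9 and by 0.29 ± 0.04 (adjusted p = 5.33e-06) in control. The genotype difference was -0.04 ± 0.04 (adjusted p = 0.410) on high sugar and -0.20 ± 0.04 (adjusted p = 0.000409) on low sugar.

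The other 5 lid members passed in all 4 comparisons of groups. Rpn5, a scaffold subunit, averaged 88.8 ± 1.41 CPM labelled cwo B9 on high sugar, 113 ± 8.19 labelled cwo B9 on low sugar, 113 ± 5.79 in control on high sugar and 150.0 ± 4.11 in control on low sugar. It had the largest genotype difference of all members on high sugar, -0.34 ± 0.05 (adjusted p = 6.06e-05), and fell by 0.41 ± 0.05 on low sugar. Rpn12, the last lid subunit to join the complex, fell on high sugar by 0.34 ± 0.05 labelled cwo B9 and by 0.38 ± 0.05 in control, and against control by 0.28 ± 0.05 on high and 0.32 ± 0.05 on low sugar. Rpn8, the inactive partner of Rpn11, fell by 0.28 ± 0.04 and 0.36 ± 0.04 with diet labelled cwo B9 and in control. The scaffold subunits Rpn3 and Rpn9 fell with diet by 0.29 ± 0.05 and 0.23 ± 0.06 labelled cwo B9 and by 0.38 ± 0.05 and 0.38 ± 0.06 in control. Against control, Rpn3, Rpn8 and Rpn9 fell by 0.16, 0.23 and 0.18 on high sugar and by 0.26, 0.31 and 0.33 on low sugar. In all, 8 of 8 lid genes fell with diet in either genotype, and 7 of 8 were lower labelled cwo B9 on either diet, with medians of -0.28 and -0.38 for diet labelled cwo B9 and in control and of -0.21 and -0.31 for genotype on high and low sugar. Over all genes 29.5% and 34.8% fell with diet, in that order. For genotype 18.9% of all genes were lower on high and 20.8% on low sugar.

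The base joins the ATPase ring to receptors that catch ubiquitin. Of its 12 genes, 10 fell with diet in either genotype, and 8 on high and 10 on low sugar were lower labelled cwo B9. Over all genes 29.5% fell with diet labelled cwo B9 and 34.8% in control, and 18.9% and 20.8% were lower for genotype. Among the ATPases, Rpt6 (FBgn0020369, X 21316052 to 21317663, plus strand) had the largest diet difference in control. In single libraries Rpt6 stood at 93.0, 99.5, 89.3 and 100.1 CPM labelled cwo B9 on high sugar, 128, 112, 108 and 104 labelled cwo B9 on low sugar, 121, 111, 108 and 109 in control on high sugar and 159, 152, 147 and 148 in control on low sugar. The 4 high-sugar libraries labelled cwo B9 were the lowest and the 4 low-sugar control libraries the highest, with no overlap with the groups between. On high sugar Rpt6 fell by 0.24 ± 0.06 (adjusted p = 0.00449) labelled cwo B9 and by 0.43 ± 0.06 (adjusted p = 1.67e-05) in control. Against control it fell by 0.23 ± 0.06 (adjusted p = 0.00735) on high and by 0.42 ± 0.06 (adjusted p = 5.53e-05) on low sugar. Its exons overlap those of CG1801 on the other strand over 182 bases, so a share of its reads is uncertain without knowing whether the counting used strand.

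Rpn13 (FBgn0033886, 2R 13958545 to 13960404, minus strand) is a ubiquitin receptor that sits on Rpn2 and binds the deubiquitinase Uch-L5. Rpn13 measured 68.4, 68.9, 68.2 and 68.2 CPM in the high-sugar and 83.7, 77.3, 70.8 and 75.4 in the low-sugar libraries labelled cwo B9, against 78.1, 75.9, 76.6 and 81.3 in the high-sugar and 89.4, 84.7, 85.8 and 84.1 in the low-sugar control libraries. The high-sugar libraries labelled cwo B9 lay within 1 CPM of each other and below every other library, and the genotypes did not overlap on either diet. Rpn13 fell with diet by 0.16 ± 0.05 (adjusted p = 0.00687) labelled cwo B9 and by 0.14 ± 0.05 (adjusted p = 0.0123) in control, the smallest control difference in the base. Against control it fell by 0.19 ± 0.05 (adjusted p = 0.00380) on high and by 0.16 ± 0.05 (adjusted p = 0.00826) on low sugar.

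The remaining ATPases Rpt1 to Rpt5 all fell with diet, by 0.18 (Rpt1) to 0.27 (Rpt4) labelled cwo B9 and by 0.24 (Rpt1) to 0.38 (Rpt3) in control. Against control, Rpt1, Rpt2, Rpt3 and Rpt5 fell by 0.20, 0.20, 0.17 and 0.21 on high sugar and by 0.25, 0.31, 0.35 and 0.31 on low sugar. Rpt4 differed by -0.09 ± 0.04 (adjusted p = 0.0894) on high sugar, which did not pass, and fell by 0.17 ± 0.04 (adjusted p = 0.00407) on low sugar. Rpn1, the scaffold on which shuttle factors dock, showed a similar split, with -0.07 ± 0.04 (adjusted p = 0.267) on high and -0.18 ± 0.04 (adjusted p = 0.00396) on low sugar. It averaged 139 ± 4.89 CPM labelled cwo B9 on high sugar, 168 ± 6.43 labelled cwo B9 on low sugar, 145 ± 8.14 in control on high sugar and 190.0 ± 4.62 in control on low sugar. Rpn2, the scaffold that holds Rpn13, fell by 0.31 ± 0.04 (adjusted p = 8.36e-06) labelled cwo B9 and by 0.40 ± 0.04 (adjusted p = 2.34e-07) in control with diet, and by 0.20 ± 0.04 on high and 0.29 ± 0.04 on low sugar with genotype. Rpn10, a further ubiquitin receptor, fell by 0.34 ± 0.05 and 0.38 ± 0.05 with diet labelled cwo B9 and in control, and against control by 0.17 ± 0.05 on high and 0.20 ± 0.05 on low sugar.

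The copy Rpt3R (FBgn0037742, 3R 9754735 to 9756510, minus strand), which lies 0.632 Mb from cwo, measured 0.553, 1.37, 1.23 and 0.675 CPM labelled cwo B9 on high sugar, 0.412, 0.939, 0.986 and 0.766 labelled cwo B9 on low sugar, 0.992, 1.41, 0.704 and 0.787 in control on high sugar and 0.965, 1.32, 1.38 and 1.08 in control on low sugar. All groups overlapped, and its differences had SE of 0.21 for diet and genotype, and a difference of the size seen in Rpt3 was not detectable at this level. Rpt4R averaged 1.10 ± 0.605, 1.10 ± 0.465, 0.840 ± 0.540 and 1.06 ± 0.314 CPM in the same order of groups. The 2 testis markers with a row summed to 5.44 to 8.37 CPM over all libraries. The other testis markers listed had no row.

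With diet, the outer ring of the core had the narrowest range of differences. All 6 core alpha genes fell with diet, by 0.22 to 0.27 labelled cwo B9 and by 0.25 to 0.34 in control, and against control 5 of 6 were lower on high and 6 of 6 on low sugar. Over all genes 29.5% fell with diet labelled cwo B9 and 34.8% in control, and 18.9% and 20.8% were lower for genotype. Prosalpha7 (FBgn0023175, 2R 9846636 to 9847836, minus strand) had the largest diet difference of the ring in control. In single libraries Prosalpha7 stood at 102, 106, 94.4 and 104 CPM labelled cwo B9 on high sugar, 134, 125, 115 and 118 labelled cwo B9 on low sugar, 115, 103, 106 and 109.8 in control on high sugar and 145, 137, 132 and 134 in control on low sugar. The high-sugar groups overlapped, and so did the low-sugar groups, where the highest library labelled cwo B9 reached the range of control. Prosalpha7 fell with diet by 0.27 ± 0.05 (adjusted p = 0.000578) labelled cwo B9 and by 0.34 ± 0.05 (adjusted p = 5.20e-05) in control. The genotype difference was -0.09 ± 0.05 (adjusted p = 0.192) on high sugar, which did not pass, and -0.16 ± 0.05 (adjusted p = 0.0292) on low sugar. The call on low sugar was lost in 6 of 27 alternative settings, with an adjusted p of up to 0.176. Among them were the fits without replicate 1 or 2 of control and without replicate 3 or 4 labelled cwo B9 on low sugar.

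Prosalpha6 (FBgn0250843, 2L 10221351 to 10222546, plus strand) had, with Prosalpha2, the smallest diet difference of the ring in control. Prosalpha6 measured 93.5, 98.2, 87.3 and 96.0 CPM in the high-sugar and 114, 109, 106 and 109 in the low-sugar libraries labelled cwo B9, against 118, 109, 115 and 111 in the high-sugar and 140.4, 135, 129 and 133 in the low-sugar control libraries. The genotypes were apart on both diets. It fell with diet by 0.22 ± 0.04 (adjusted p = 0.000507) labelled cwo B9 and by 0.25 ± 0.04 (adjusted p = 0.000116) in control, and against control by 0.27 ± 0.04 (adjusted p = 0.000138) on high and 0.30 ± 0.04 (adjusted p = 5.96e-05) on low sugar.

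Prosalpha2 (FBgn0086134, 3R 12431321 to 12432556, plus strand) changed by nearly the same amount in each comparison. In single libraries Prosalpha2 measured 95.6, 98.3, 89.1 and 95.9 CPM labelled cwo B9 on high sugar, 115, 111, 112 and 110.1 labelled cwo B9 on low sugar, 113, 109, 104 and 109 in control on high sugar and 133, 131, 128 and 126 in control on low sugar. Its groups on high sugar and on low sugar were apart by genotype. It fell by 0.24 ± 0.04 and 0.25 ± 0.04 with diet labelled cwo B9 and in control, and by 0.20 ± 0.04 and 0.21 ± 0.04 with genotype on high and low sugar. Prosalpha3 measured 95.1, 99.5, 87.8 and 101 CPM in the high-sugar and 123, 110.4, 106 and 107 in the low-sugar libraries labelled cwo B9, against 116, 105, 103 and 112 in the high-sugar and 142, 131, 129 and 134 in the low-sugar control libraries. Here too the genotypes did not overlap on either diet, and Prosalpha3 fell by 0.22 ± 0.06 and 0.30 ± 0.06 with diet and by 0.19 ± 0.06 and 0.26 ± 0.06 with genotype in the same order. Prosalpha4 and Prosalpha5 fell by 0.26 and 0.23 with diet labelled cwo B9 and by 0.33 and 0.30 in control, and by 0.27 and 0.21 with genotype on high sugar and 0.34 and 0.28 on low sugar.

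The inner ring holds the protease sites, and it held 4 of the 8 members outside Rpt3R and Rpt4R that did not pass for genotype on high sugar. All 7 core beta genes fell with diet in either genotype, but against control 3 of 7 were lower on high sugar, while 6 of 7 were lower on low sugar. Over all genes 29.5% fell with diet labelled cwo B9 and 34.8% in control, and 18.9% and 20.8% were lower for genotype. Prosbeta5 (FBgn0029134, 2R 10819978 to 10821178, plus strand), which carries the chymotrypsin-like site, passed in each comparison of groups. In single libraries Prosbeta5 stood at 123, 127, 119 and 129 CPM labelled cwo B9 on high sugar, 154, 141, 138 and 133 labelled cwo B9 on low sugar, 151, 143, 137 and 151 in control on high sugar and 184, 173, 166 and 166 in control on low sugar. The genotypes did not overlap on either diet. It fell with diet by 0.19 ± 0.05 (adjusted p = 0.00738) labelled cwo B9 and by 0.25 ± 0.05 (adjusted p = 0.000644) in control, and against control by 0.22 ± 0.05 (adjusted p = 0.00299) on high and 0.28 ± 0.05 (adjusted p = 0.000449) on low sugar.

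Prosbeta1 (FBgn0010590, 2R 16013805 to 16014787, minus strand) carries the caspase-like site and Prosbeta2 (FBgn0023174, 3L 14999951 to 15001319, plus strand) the trypsin-like site. Prosbeta1 measured 74.5, 77.1, 70.1 and 81.4 CPM in the high-sugar and 93.5, 86.0, 81.7 and 80.2 in the low-sugar libraries labelled cwo B9, against 91.4, 81.8, 80.1 and 85.0 in the high-sugar and 109, 102, 95.9 and 108 in the low-sugar control libraries. Among libraries labelled cwo B9 the diets overlapped, through the highest high-sugar library, and on high sugar the genotypes overlapped. Prosbeta1 fell with diet by 0.17 ± 0.06 (adjusted p = 0.0309) labelled cwo B9 and by 0.29 ± 0.06 (adjusted p = 0.000655) in control, and its genotype difference was -0.16 ± 0.06 (adjusted p = 0.0545) on high and -0.28 ± 0.06 (adjusted p = 0.00193) on low sugar. Its diet call labelled cwo B9 was lost in 8 of 27 alternative settings, with an adjusted p of up to 0.108. Among them were the fits without replicate 1 or 2 on low sugar and without replicate 1 or 3 on high sugar. Its genotype difference on high sugar passed in 5 of 27, among them the fits without replicate 3 of control on high sugar, replicate 4 labelled cwo B9 on high sugar or replicate 1 labelled cwo B9 on low sugar. In single libraries Prosbeta2 stood at 97.8, 97.3, 90.8 and 97.4 CPM labelled cwo B9 on high sugar, 121, 102, 101 and 105 labelled cwo B9 on low sugar, 110.1, 98.9, 101 and 102 in control on high sugar and 130.4, 126, 124 and 123 in control on low sugar. The 4 high-sugar libraries labelled cwo B9 lay just under the 4 of control. Prosbeta2 fell with diet by 0.16 ± 0.05 (adjusted p = 0.0234) labelled cwo B9 and by 0.29 ± 0.05 (adjusted p = 0.000224) in control. The call labelled cwo B9 was lost in 6 of 27 alternative settings, with an adjusted p of up to 0.112. Among them were the fits without replicate 3 on high sugar and without replicate 1 on low sugar, where the difference was -0.0996. Its genotype difference was -0.10 ± 0.05 (adjusted p = 0.158) on high sugar, which did not pass, and -0.23 ± 0.05 (adjusted p = 0.00282) on low sugar.

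Prosbeta3 (FBgn0026380, 3R 9005313 to 9006226, minus strand), a subunit with no protease site, was the only one of the 31 whose mean was not lower labelled cwo B9 than in control on either diet. Prosbeta3 measured 83.7, 81.6, 78.5 and 80.0 CPM in the high-sugar and 106, 94.3, 94.0 and 99.1 in the low-sugar libraries labelled cwo B9, against 79.4, 78.0, 76.1 and 79.4 in the high-sugar and 101, 101, 96.0 and 95.0 in the low-sugar control libraries. The genotypes overlapped on both diets, while the diets were apart in both genotypes. It fell with diet by 0.28 ± 0.04 (adjusted p = 5.25e-05) labelled cwo B9 and by 0.32 ± 0.04 (adjusted p = 5.49e-06) in control, the largest control difference of the ring. Its genotype difference was 0.05 ± 0.04 (adjusted p = 0.386) on high and 0.00 ± 0.04 (adjusted p = 0.989) on low sugar, with 95% intervals of -0.04 to 0.14 and -0.09 to 0.09. Under quantile normalization these differences were -0.0038 on high and -0.0642 on low sugar, neither of which passed. Prosbeta3 lies 1.38 Mb from cwo on 3R. The other members on 3R, 2.03 to 18.8 Mb from cwo apart from Rpt3R, were Rpn5, Rpn7, Rpn9, Rpn2, Rpt2, Rpt5, Prosalpha2 and Prosbeta7.

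Prosbeta7 (FBgn0250746, 3R 5357012 to 5358364, minus strand), also without a protease site, had the smallest diet differences of the ring and steady genotype differences. In single libraries Prosbeta7 measured 129, 130.4, 123 and 132 CPM labelled cwo B9 on high sugar, 147, 145, 139 and 136 labelled cwo B9 on low sugar, 159, 148, 149.6 and 147 in control on high sugar and 170.0, 167, 163 and 163 in control on low sugar. On each diet all libraries labelled cwo B9 were below all control libraries. It fell with diet by 0.14 ± 0.04 (adjusted p = 0.00543) labelled cwo B9 and by 0.13 ± 0.04 (adjusted p = 0.00512) in control, and against control by 0.23 ± 0.04 (adjusted p = 0.000165) on high and 0.22 ± 0.04 (adjusted p = 0.000206) on low sugar. Prosbeta6 measured 81.7, 80.7, 78.9 and 82.9 CPM in the high-sugar and 107, 98.8, 94.2 and 100.1 in the low-sugar libraries labelled cwo B9, against 94.7, 88.7, 90.2 and 93.5 in the high-sugar and 118, 104, 111 and 109.9 in the low-sugar control libraries. On low sugar the genotypes of Prosbeta6, another structural subunit, overlapped through a low control library. Prosbeta6 fell by 0.30 ± 0.04 and 0.27 ± 0.04 with diet labelled cwo B9 and in control, and by 0.18 ± 0.04 and 0.15 ± 0.04 with genotype on high and low sugar. The call of Prosbeta6 on low sugar was lost in 3 of 27 alternative settings, among them the fit without replicate 1 of control on low sugar. Prosbeta4 fell by 0.23 ± 0.06 and 0.32 ± 0.06 with diet in the same order, and its genotype difference was -0.13 ± 0.06 (adjusted p = 0.110) on high sugar, which did not pass, and -0.23 ± 0.06 (adjusted p = 0.0102) on low sugar.

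Whether the diet response differed between the genotypes was tested by the interaction, the diet difference labelled cwo B9 minus that in control. Of 33 members 1 was called higher and none lower, where 7.92% and 8.95% of all genes were, and at an unadjusted p under 0.05 there were 4 (12.1%), against 30.7% of all genes. The call was Rpn6, with an interaction of 0.16 ± 0.05 (adjusted p = 0.0456): its fall on high sugar was smaller labelled cwo B9. Without replicate 1 labelled cwo B9 on low sugar 4 members were called, Rpn6 with Rpn11 (0.21), Rpt6 (0.25) and Prosbeta2 (0.19), and without replicate 1 of control on high sugar 2 were, Rpn6 and Rpt3 (0.22). Of the 9837 genes, 1201 were called higher in the first of these fits and 692 in the second, against 779 in the fit reported. The 4 of 33 members lay near the share of all genes in that first fit. The call of Rpn6 was lost in 16 of 26 alternative settings, among them the fit without the library of highest Tweedle level in each group, and its adjusted p ranged from 0.0172 to 0.163. Over the 31 members other than Rpt3R and Rpt4R, 27 interactions were above 0 and 4 below, the median was 0.08 against 0.00 over all genes, and 27 of the 31 95% intervals included 0, within bounds of -0.18 and 0.38. The largest values of each subcomplex among the 31 were 0.17 ± 0.07 for Rpn11, 0.19 ± 0.09 for Rpt6, 0.08 ± 0.08 for Prosalpha3 and 0.13 ± 0.08 for Prosbeta2. The lowest were -0.05 ± 0.06 for Rpn7, -0.02 ± 0.06 for Rpn13, 0.01 ± 0.05 for Prosalpha2 and -0.03 ± 0.06 for Prosbeta6, and none of these 8 passed.

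Levels of different subunits were compared per kilobase of annotated exon. On this scale the core subunits stood above most of the regulatory particle in every group. The median core alpha level was 96.7 CPM per kilobase labelled cwo B9 on high sugar, 113 labelled cwo B9 on low sugar, 110.3 in control on high sugar and 137 in control on low sugar (given as medians of 6 gene means). For core beta the medians were 92.7, 107.5, 99.4 and 122 in the same order of groups, for the base without Rpt3R and Rpt4R 59.5, 70.5, 65.5 and 82.9, and for the lid 55.0, 64.8, 62.6 and 79.7. Prosbeta5 had the highest level per kilobase in 3 groups, 109 ± 4.001 labelled cwo B9 on high sugar, 127 ± 5.94 in control on high sugar and 151 ± 7.66 in control on low sugar. In libraries labelled cwo B9 on low sugar Prosalpha7 led with 126 ± 8.44, against 124 ± 7.91 for Prosbeta5, a gap within the spread of the libraries. Rpn13 had the lowest level in every group, from 40.9 ± 0.203 labelled cwo B9 on high sugar to 51.4 ± 1.42 in control on low sugar. The highest subunit exceeded the lowest by 2.67, 2.74, 2.73 and 2.94 times in the 4 groups.

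**Figure D4:**
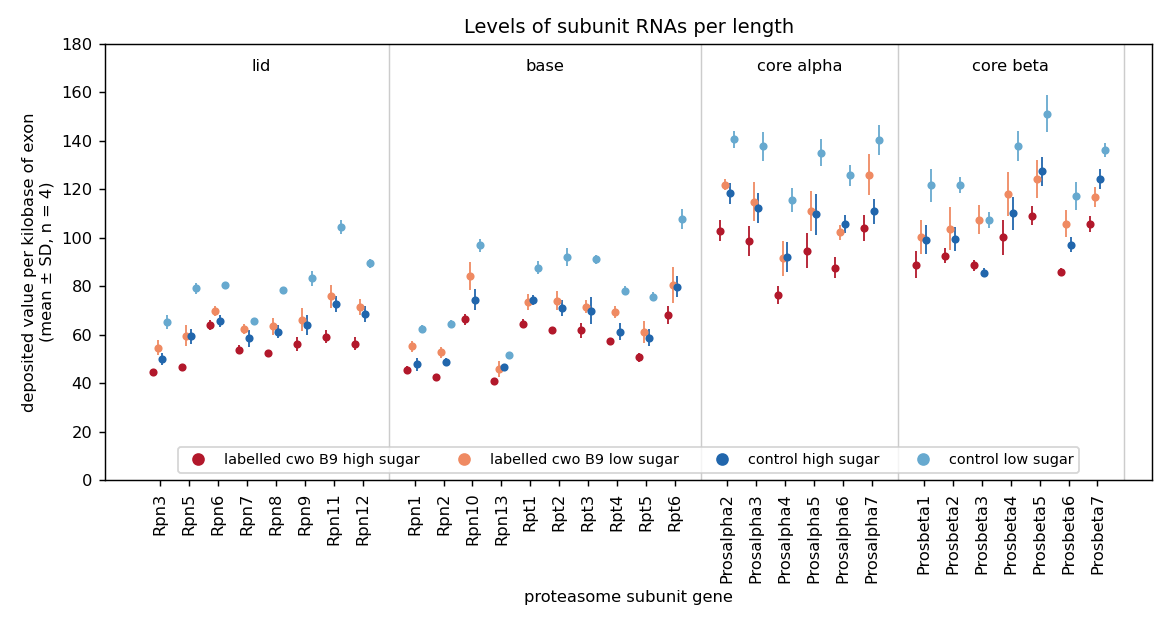
Points are mean CPM per kilobase of annotated exon for 31 subunit genes, with SD over 4 libraries, in the 4 groups. The core alpha and core beta genes stand mostly above the lid and base genes, and in nearly every gene the control low-sugar point is the highest and the point labelled cwo B9 on high sugar the lowest; Prosbeta3 is the exception.

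As a description of balance, the summed CPM of lid and base was divided by that of the core in each library. The ratio was 1.36 ± 0.0410 labelled cwo B9 on high sugar, 1.395 ± 0.0207 labelled cwo B9 on low sugar, 1.36 ± 0.0381 in control on high sugar and 1.45 ± 0.0398 in control on low sugar (SD, n = 4). By library it ran from 1.32 to 1.42, 1.38 to 1.42, 1.32 to 1.42 and 1.40 to 1.49, and the libraries of every pair of groups overlapped. The lid sum over the core beta sum ran from 0.972 to 1.03, 1.03 to 1.07, 1.01 to 1.07 and 1.085 to 1.145 in the same order. On that ratio control on low sugar lay above every other group without overlap, and the other groups overlapped each other. The lid sum and the base sum, each over core alpha, overlapped in every pair of groups. These ratios were not tested.

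The members are spread over the genome: of the 31, 9 lie on 3R, 9 on 2R, 5 on 3L, 4 on 2L and 4 on X. The median diet difference was -0.19 to -0.30 by arm labelled cwo B9 and -0.29 to -0.38 in control, and the median genotype difference was -0.17 to -0.22 on high sugar and -0.20 to -0.34 on low sugar. Exons of 13 members overlap a gene on the opposite strand by 1 to 264 bases, the most in Rpn9, and none overlap a gene on the same strand. The libraries were made with a stranded kit, but whether reads were counted by strand is not stated in the labels or notes, so values of these 13 genes may hold reads of their partners.

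Factors that assemble or assist the proteasome fell with diet in most cases, and fewer of them passed for genotype. Of 10 genes, 8 fell on high sugar labelled cwo B9 and 8 in control, where CG9588, annotated as p27, rose by 0.11 ± 0.05 (adjusted p = 0.0412). The shares of all genes that fell were 29.5% labelled cwo B9 and 34.8% in control. Pomp, the chaperone that matures the core, averaged 65.1 ± 4.24 CPM labelled cwo B9 on high sugar, 78.4 ± 4.75 labelled cwo B9 on low sugar, 69.1 ± 4.79 in control on high sugar and 83.3 ± 2.87 in control on low sugar. It fell with diet by 0.27 ± 0.06 and 0.27 ± 0.06 labelled cwo B9 and in control, and its genotype difference did not pass on either diet (-0.09 ± 0.06 on high and -0.09 ± 0.06 on low sugar). The largest falls with diet were those of CG11885, by 0.96 ± 0.08 and 1.15 ± 0.08, and of REG, an activator cap of the core, by 0.56 ± 0.07 and 0.76 ± 0.07. Sem1, the smallest lid subunit, fell by 0.45 ± 0.08 and 0.69 ± 0.08. Against control 3 of 10 were lower labelled cwo B9 on each diet, against 18.9% of all genes on high and 20.8% on low sugar, and these were the proteasome-bound deubiquitinases Uch-L5 and Usp14 and the regulator PI31. Passed or not, 7 of the 10 genotype differences were below 0 on high sugar, with a median of -0.09. On low sugar 10 of 10 were, with a median of -0.17. Uch-L5 averaged 23.6 ± 1.41 CPM labelled cwo B9 on high sugar, 33.7 ± 3.19 labelled cwo B9 on low sugar, 35.6 ± 2.80 in control on high sugar and 53.4 ± 1.69 in control on low sugar, and was lower by 0.58 ± 0.07 and 0.66 ± 0.07 on high and low sugar.

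The transcription factors listed as regulators were cnc, maf-S, Keap1, crc, Dref, Myc and foxo. Of these 7, 2 fell and 3 rose with diet labelled cwo B9, and 2 fell and 2 rose in control. On either diet 2 were lower and 1 higher labelled cwo B9. Over all genes 29.5% fell and 22.5% rose labelled cwo B9, and 34.8% and 33.1% in control. For genotype 18.9% were lower and 21.1% higher on high sugar, and 20.8% and 23.1% on low sugar. The falls with diet in the list lay near or under these shares. cnc, the Nrf-family activator, averaged 208 ± 11.4 CPM labelled cwo B9 on high sugar, 192 ± 15.7 labelled cwo B9 on low sugar, 239 ± 13.1 in control on high sugar and 208 ± 6.51 in control on low sugar. It rose with diet in control by 0.20 ± 0.06 (adjusted p = 0.00806), differed by 0.12 ± 0.06 (adjusted p = 0.111) labelled cwo B9, and was lower labelled cwo B9 on high sugar by 0.20 ± 0.06 (adjusted p = 0.0153). Its partner maf-S rose with diet by 0.25 ± 0.06 and 0.41 ± 0.06 labelled cwo B9 and in control, and its inhibitor Keap1 rose labelled cwo B9, by 0.22 ± 0.08 (adjusted p = 0.0345), against 0.06 ± 0.08 (adjusted p = 0.560) in control, an interaction of 0.16 ± 0.12 (adjusted p = 0.363) that did not pass. Dref, an activator of genes of DNA replication and growth, fell with diet by 0.28 ± 0.06 and 0.66 ± 0.06, and its interaction of 0.38 ± 0.08 (adjusted p = 0.00657) was called. Myc, a driver of growth, was higher labelled cwo B9 by 0.63 ± 0.07 on high and 0.47 ± 0.07 on low sugar. These are RNA levels and do not measure the activity of the factors.

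Other parts of the ubiquitin system and other large complexes gave a setting for these counts. Of 12 genes of the p97 segregase and of shuttle factors, which bring substrates to the proteasome, 9 fell with diet labelled cwo B9 and 11 in control, and 2 were lower labelled cwo B9 on high and 8 on low sugar. Over all genes 29.5% fell with diet labelled cwo B9 and 34.8% in control, and 18.9% were lower labelled cwo B9 on high and 20.8% on low sugar. The 2 of 12 on high sugar lay near the share of all genes. TER94, the p97 segregase itself, fell with diet by 0.24 ± 0.05 and 0.48 ± 0.05 labelled cwo B9 and in control, with an interaction of 0.24 ± 0.06 (adjusted p = 0.0210). Of 17 genes of ubiquitin and its conjugation, 7 fell and 5 rose with diet labelled cwo B9, and 9 fell and 4 rose in control. Among all genes 22.5% rose labelled cwo B9 and 33.1% in control, and the rises here lay near or under these shares. The polyubiquitin genes moved apart by genotype: Ubi-p5E was lower labelled cwo B9 by 1.48 ± 0.11 on high and 1.33 ± 0.11 on low sugar, and Ubi-p63E was higher by 0.67 ± 0.13 and 0.50 ± 0.13. Reads shared among the ubiquitin genes make these values uncertain.

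Complexes built on the same scaffold domains as the lid, the COP9 signalosome and the translation factor eIF3, also fell with diet, in 21 of 21 genes labelled cwo B9 and 20 of 21 in control, with medians of -0.25 and -0.36. Over all genes 29.5% fell with diet labelled cwo B9 and 34.8% in control. Against control, 3 were lower and 3 higher labelled cwo B9 on high sugar, with a median of -0.04, and 9 were lower on low sugar, with a median of -0.10. The 3 lower and the 3 higher on high sugar were under the 18.9% and 21.1% of all genes. The 9 lower on low sugar stood against 20.8% of all genes. The chaperonin CCT, a ring complex that folds actin and tubulin, fell with diet too, in 7 of 7 genes in either genotype, with medians of -0.55 labelled cwo B9 and -0.80 in control. On high sugar all 7 CCT genes were higher labelled cwo B9 than in control, against 21.1% of all genes, with a median of 0.20. On low sugar none of them passed. Cct5 averaged 334 ± 7.80 CPM labelled cwo B9 on high sugar, 512 ± 45.4 labelled cwo B9 on low sugar, 281 ± 18.2 in control on high sugar and 536 ± 17.2 in control on low sugar. In 4 of the 7 the interaction was called higher, against 7.92% of all genes. The gene lists were not tested against each other.

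**Figure D5:**
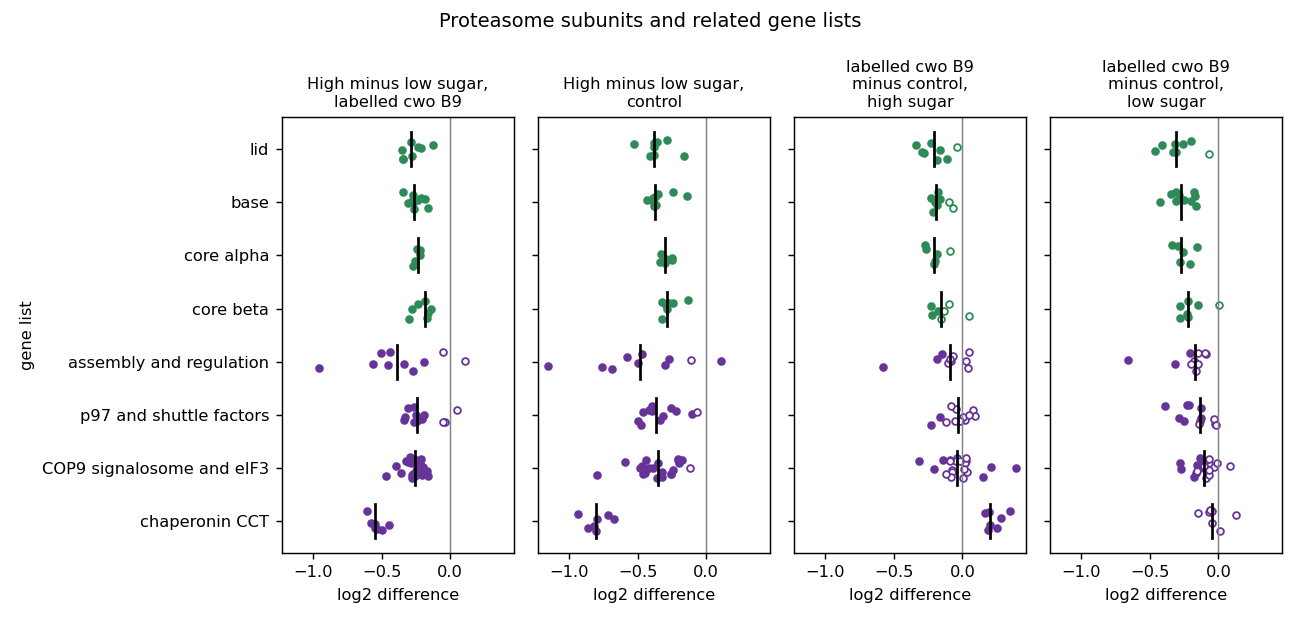
Each point is a gene, by gene list (rows) and comparison (panels), at its log2 difference; filled points passed, black bars are list medians, and vertical scatter within a row only separates points. All 4 proteasome rows (the base without Rpt3R and Rpt4R) lie left of 0 in the 4 panels, with Prosbeta3 as the exception in the genotype panels, whereas the CCT row lies left of 0 for diet and right of 0 for genotype on high sugar.

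In the authors' deposited table of comparisons, 31 members were lower on high sugar labelled cwo B9, 31 in control, 22 were lower labelled cwo B9 on high sugar and 29 on low sugar, with none higher, at an adjusted p under 0.05. Its median log2 differences over the 33 members were -0.24, -0.33, -0.19 and -0.26.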

How the data were processed

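RNA of whole Drosophila larvae was depleted of ribosomal RNA, made into libraries with a stranded kit and read as 75 bp single ends in 2 runs per sample, per the labels' protocols. The submitters' processing notes name Trimmomatic, TopHat2 2.1.0, HTSeq and limma; the build and annotation used for counting, and whether strand was used, are not stated there. The deposited values are a normalized signal that the authors named CPM; columns sum to 960909 to 1043960 and 9 of 16 to more than true CPM can, so they were treated as a scaled signal and not as counts. The authors' deposited table of comparisons gives log2 fold changes, test scores and p-values, per the file headers.

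Of 9863 genes, the 9837 with a value of at least 1 in at least 4 libraries were tested with limma 3.58.1 (R 4.3.3; empirical Bayes with trend) on log2(value + 0.5), with 1 mean per group over all 16 libraries, 12 residual and 2.97 prior degrees of freedom, two-sided contrasts, Benjamini-Hochberg adjustment over all genes and a threshold of 0.05. A fold on this scale understates the change of genes near 0. Means, SDs, per-kilobase levels and figures were made with Python 3.11.15, pandas 2.3.3 and matplotlib 3.10.9; exon lengths and overlaps came from the BDGP6 annotation of Ensembl release 115, which held 9702 of the tested gene IDs. Depth, 44.9 to 54.2 M reads per library, was read from the smallest step between values. The limma script was tested on simulated data. Members, gene lists and the rule for naming genes (the largest and smallest difference of each subcomplex, the protease subunits, Rpn11 and every exception to a common call) were chosen with earlier results of these data known. Alternatives were other pseudocounts, filters, scalings and fits, a replicate block and leaving out libraries; leaving out the library of highest Tweedle level in each group and a Tweedle covariate were chosen after seeing the data. A search of promoters for motifs was not run, and no sequences were used here.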

Additional observations from a re-analysis of the deposited data

Results flagged for a closer look

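Over 132 tests of a member within a group of 4 libraries, 4 values, in 3 libraries, stood so far from the other 3 of their group that the gap passed Dixon's critical value; chance gives about 1 in 20. Rpn8 was lowest at 117.9 CPM and Rpt2 lowest at 140.7 CPM in replicate 4 of control on low sugar. Rpn9 was highest at 117.5 CPM in replicate 1 of control on high sugar. Prosbeta2 was lowest at 90.8 CPM in replicate 3 labelled cwo B9 on high sugar. For Rpn6 the diet response differed between genotypes, with an interaction of 0.16 on the log2 scale that 16 of 26 alternative settings did not call.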

How the results depend on the processing

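Under 27 alternatives for each comparison of groups and 26 for the interaction, none of the 115 called differences of members changed direction, and over these alternatives 74 values lost the threshold and 3030 kept it. Members called higher for the interaction numbered 1 in the fit reported, and 0 with a filter of at least 1 CPM in all 16 libraries, 0 with a robust fit and 0 without the library of highest Tweedle level in each group. Of all genes, 736 of 9096 were called higher with that filter, 776 of 9837 with the robust fit and 285 of 9837 without those libraries. Over the fits that left out 1 library each the count was 0 to 4. The count of 4 came without replicate 1 labelled cwo B9 on low sugar, where 1201 of 9837 genes were called higher. The cause was not tested. Leaving out 1 library gave 29 to 31 members lower for diet labelled cwo B9, 31 in control, 17 to 25 for genotype on high sugar and 27 to 29 on low sugar. Of the 9837 genes these fits called 2652 to 2929, 3248 to 3505, 1624 to 2057 and 1795 to 2317 lower, in the same order. Quantile normalization gave 28, 30, 26 and 30 members lower in the same order, and median-ratio scaling 29, 31, 22 and 29. Of all genes, 2680, 3447, 2031 and 2510 of 9837 were lower under quantile normalization. Under median-ratio scaling 2640, 3281, 1754 and 2001 of 9834 were, against 2906, 3420, 1861 and 2045 of 9837 in the fit reported. The all-gene median for genotype on low sugar was -0.0379 under quantile normalization, against 0.0003 in the fit reported.

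Of the 50 differences that were not called, 10 took the other sign under some alternative, and none of these values passed. Leaving out 1 library gave -0.169 to 0.1083 for genotype on high sugar in Rpt3R. In Rpt4R it gave -0.2739 to 0.2167 for diet labelled cwo B9, -0.1311 to 0.2504 for genotype on low sugar and -0.0022 to 0.4884 for the interaction. It gave -0.0342 to 0.0218 for genotype on low sugar in Prosbeta3. For the interaction it gave -0.0608 to 0.0197 in Rpn13, -0.0162 to 0.0354 in Prosalpha2, -0.0595 to 0.0013 in Prosbeta6 and -0.0248 to 0.0177 in Prosbeta7. Quantile normalization gave -0.0038 and -0.0642 for genotype on high and low sugar in Prosbeta3, and 0.0176 for the interaction in Prosbeta7, where median-ratio scaling gave 0.0039. For Rpt4R, genotype on low sugar was -0.0117 with a pseudocount of 0.1, and without the library of highest Tweedle level in each group it was -0.1149 and diet labelled cwo B9 was 0.0266. Rpt3R and Rpt4R have no value under the filter of at least 1 CPM in all 16 libraries. A further 15 values passed that had not been called.

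The labels give the same replicate numbers in each group but say nothing of what a number shares. Deviations of same-numbered libraries from their group means correlated at -0.340 to 0.141 at the lowest pair of each number and at 0.311 to 0.437 at the highest. For replicate 2 every pair was positive, with a median of 0.382. As 5 of 16 libraries correlated best with their own number, the numbers were not used as pairs. The median deviation over the members was below 0 in replicate 3 of every group, from -0.021 in control to -0.074 labelled cwo B9, both on low sugar. What a number shares was not tested. With a replicate block 31, 31, 25 and 30 members were called lower in the same order as above. Without it these were 31, 31, 23 and 29. Of the 9837 genes, 3012, 3477, 1975 and 2192 were called lower with the block, and 2906, 3420, 1861 and 2045 without it. For the interaction 1 member and 914 of the 9837 genes were called higher with the block.

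Rpt3R and Rpt4R rested on 19 to 92 reads per library. The SD over the 4 libraries of a group was 16.5% to 42.3% of the mean in Rpt3R and 29.7% to 64.2% in Rpt4R. The part of depth in this spread was not tested.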

Other observations

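In some libraries nearly all subunits lay on the same side of the mean of their group. In replicate 1 labelled cwo B9 on low sugar 31 of the 31 members other than Rpt3R and Rpt4R lay above the mean of their group, and in replicate 3 of the same group 0 of 31 did. In control on high sugar 31 of 31 lay above the group mean in replicate 1 and 1 of 31 in replicate 3. The spread was smaller in the other groups, where replicate 2 labelled cwo B9 on high sugar had 26 members above the mean and replicate 3 had 3, and in control on low sugar replicate 1 had 28 and replicate 4 had 3. As the median over members of the deviation from the group mean, these libraries differed by 0.11 in replicate 1 and -0.07 in replicate 3 labelled cwo B9 on low sugar, and by 0.08 in replicate 1 and -0.05 in replicate 3 of control on high sugar. The members share each library, so they are not independent measurements of it. The share of all genes above their group mean in each library was not computed. Whether these deviations are particular to the subunits was not tested.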
